A study of Mus musculus with 15 samples.

Results

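The integrated stress response and the unfolded protein response were followed in mouse neural progenitor cells through 52 genes, 31 of the first pathway and 21 of the second, taken from a list of members by name, which was drawn up with earlier results of these data known. All 52 genes had transcripts in the deposited count table, which covered 34910 genes once its transcripts were summed by gene, and all 52 were among the 15141 genes kept by a filter on low counts. The cells were wild type and were grown with FGF2, EGF and heparin. Plasmids carrying EGFP and a short hairpin RNA were introduced, EGFP-positive cells were sorted on day 3, and RNA libraries were made by a SMART-seq2-type method. There were 5 groups of 3 libraries: a control hairpin (shControl), hairpins named shLINE_Orf1, shLINE_Orf2 and shLINE_MdV_I after LINE-1, and shLINE_Orf1 given together with a full-length LINE-1 (shLINE_Orf1+LINE-1). LINE-1 is a retrotransposon present in many copies in the genome, and the series' design speaks of hairpins against young and against old LINE-1. All groups, controls included, carry a plasmid and passed the same sort. Nothing in the labels says that replicate libraries come from separate cultures; p-values therefore measure the spread between these libraries, which may be technical. LINE-1 RNA was not analysed here, so the hairpin labels were not checked against their target.

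In the integrated stress response (ISR), kinases that sense unfolded proteins, missing amino acids or other stress phosphorylate the translation factor eIF2, which lowers general protein synthesis while the transcription factor ATF4 is translated. ATF4, usually with a C/EBP partner, then raises genes for amino acid synthesis, amino acid uptake and tRNA charging, and feedback regulators such as Ppp1r15a and Trib3. In the unfolded protein response (UPR), the sensors PERK (Eif2ak3), IRE1 (Ern1) and ATF6 of the endoplasmic reticulum raise chaperones, folding enzymes and the machinery that degrades misfolded proteins; PERK also feeds into the ISR.

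Short promoter elements read by these pathways are shown first, because they occur in different members of the 2 pathways and do not rest on expression. RefSeq windows from 250 bases before to 50 bases after a gene's start (GRCm38.p6) were found for 43 of the 52 genes. The C/EBP-ATF response element, searched as TGATGNAA on both strands (N is any base), was present for 10 of 25 ISR genes and 1 of 18 UPR genes, against 4.51% of the 27025 genes in the RefSeq table. The endoplasmic reticulum stress element, searched on both strands as CCAAT and CCACG with 9 bases between them, was present for 7 of 18 UPR genes and 0 of 25 ISR genes, against 0.137% of genes. The element TGACGTGG was present for 0 of the 43 genes, against 0.714% of genes. A match describes these letters in these windows and does not show that a factor binds there. The following stretches hold the first element in 4 ISR genes described below, with its letters in capitals, each read 5′ to 3′ on the gene's own strand.
Asns, chr6:7693214-7693243, minus strand: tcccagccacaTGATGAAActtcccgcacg
Nupr1, chr7:126625562-126625591, minus strand: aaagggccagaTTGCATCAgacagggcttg
Chac1, chr2:119351038-119351067, plus strand: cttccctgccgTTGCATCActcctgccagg
Gars, chr6:55037960-55037989, plus strand: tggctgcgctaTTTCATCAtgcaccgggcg
The next stretches hold the second element in 3 UPR chaperone genes, again with its letters in capitals.
Hspa5, chr2:34772009-34772059, plus strand: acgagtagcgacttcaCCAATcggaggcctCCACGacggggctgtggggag
Canx, chr11:50325784-50325834, minus strand: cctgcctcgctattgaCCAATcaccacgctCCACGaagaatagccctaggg
Pdia6, chr12:17266475-17266525, plus strand: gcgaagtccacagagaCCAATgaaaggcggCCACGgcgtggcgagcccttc

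The libraries held 39204327 to 51070601 gene-assigned counts, of which the 52 genes together took 0.769% to 1.03%. All 10 listed markers of neural progenitors were detected, from Prom1 at a mean of 4.71 CPM (counts scaled to a common library total) and Pax6 at 19.0 to Sox2 at 189, Nes at 309 and Fabp7 at 3776. The oligodendrocyte-lineage factors Olig1 and Olig2, at 2174 and 804 CPM, were above most of them. Of 7 listed microglial markers, 2 passed the filter on low counts. P2ry12 averaged 0.885 CPM and Csf1r 0.373, while Aif1 was at 0 in every library. Of the 15 libraries, shLINE_Orf1 replicate 1 stood apart on the first principal component (score 75.9, the others -18.8 to 24.3) and had the largest share of mitochondrial mRNA, 3.61% against 1.36% to 2.02%. It was the lowest of all libraries for 19 of the 52 genes and the highest for 9, and the median length of their main transcripts was 3253 bases where it was lowest and 1733 bases where it was highest. shControl replicate 2 came next, at 24.3. Results are therefore also given without these 2 libraries, an alternative chosen after seeing the data. On the second principal component shControl replicate 1 lay furthest out (score -31.5, the others -22.2 to 20.9). It was the lowest library for 10 of the 52 genes and the highest for 6, and it was kept in that alternative.

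Compared between genes on the length-scaled TPM unit, levels differed widely within each role. Pdia3, a protein disulfide isomerase, averaged 524 TPM over the 15 libraries, Hspa5, the chaperone BiP, 508, and Phgdh, the first enzyme of serine synthesis, 476. At the other end stood Ern1 at 1.36 TPM, the transcription factor Atf3 at 1.48 and the cystine transporter Slc7a11 at 1.99. Among the regulators, Eif4ebp1, a repressor of cap-dependent translation, at 195 TPM and Atf4 at 166 were far above Cebpg at 30.9, Ddit3 at 23.8, Nupr1 at 14.2, Chac1 at 12.7, Trib3 at 7.29 and Atf5 at 5.27. Of the Eif4ebp1 counts, 56.6% lay on Eif4ebp1-202, a transcript of 798 bases annotated as processed and not as protein-coding. The coding Eif4ebp1-201, of 1997 bases, held 43.4%, so the 195 TPM is not the level of the coding transcript alone.

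**Figure D1:**
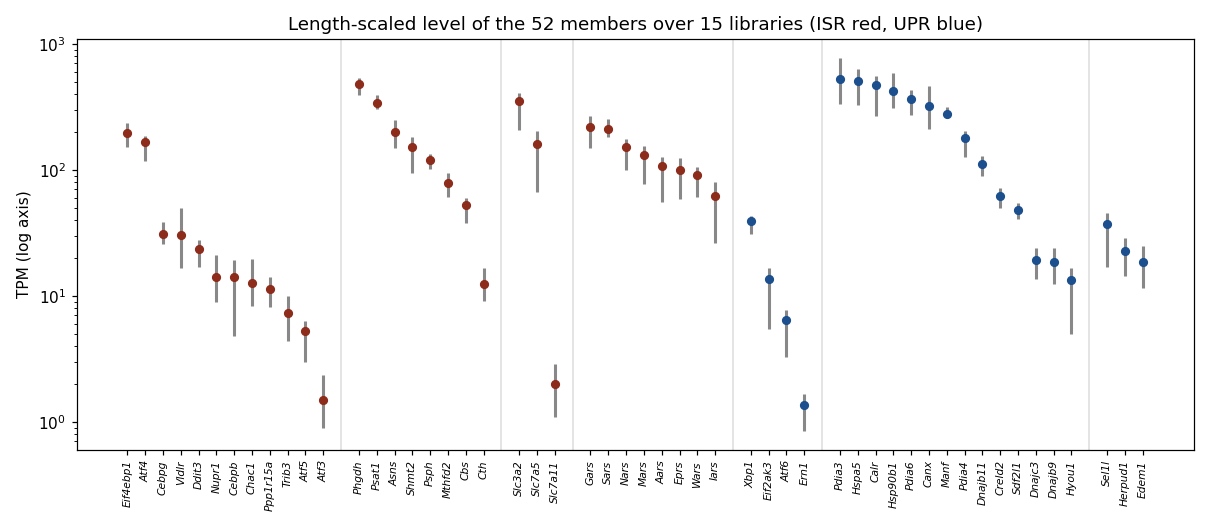
Length-scaled level of each of the 52 genes in TPM on a log axis, ordered within 7 role groups separated by grey lines; dots are means and bars the lowest to highest of 15 libraries, ISR genes in red and UPR genes in blue. Means run from 1.36 TPM for Ern1 to 524 TPM for Pdia3.

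Across the 5 groups few of these genes changed. With edgeR's quasi-likelihood test and Benjamini-Hochberg adjustment over all 15141 genes, 2 of 52 differed among the 5 groups, Vldlr (adjusted p = 0.0149) and Cbs (adjusted p = 0.0430), where 0.944% of all genes did. The Vldlr call was lost without shLINE_Orf2 replicate 2, shLINE_MdV_I replicate 1 or 2, or shLINE_Orf1+LINE-1 replicate 2 (edgeR adjusted p up to 0.0578), and the Cbs call without any 1 library other than shLINE_Orf1 replicate 1 or 2 (edgeR adjusted p up to 0.156). Against shControl, 1 of 52 was called in shLINE_Orf1 (Cbs; 0.178% of all genes) and 1 of 52 in shLINE_MdV_I (Cbs; 0.594% of all genes). None was called in shLINE_Orf2 (0.192% of all genes) or in shLINE_Orf1+LINE-1 (0.139% of all genes), and in these comparisons 2 and 9 of the 52 had an unadjusted p under 0.05 (7.01% and 8.76% of all genes), DESeq2 called 2 and 2 (1.32% and 1.57% of all genes), and limma-voom 1 and 7 (2.53% and 3.58%). These 4 comparisons share the control libraries. Between the other pairs, 1 of 52 was called in shLINE_Orf1+LINE-1 against shLINE_Orf2 (Vldlr; 0.238% of all genes) and 1 of 52 in shLINE_Orf1+LINE-1 against shLINE_MdV_I (Cth; 0.680% of all genes). None was called by edgeR in shLINE_Orf2 against shLINE_Orf1 (0% of all genes), shLINE_MdV_I against shLINE_Orf1 (0.687%) or shLINE_MdV_I against shLINE_Orf2 (0.112%). In those pairs the 52 held 8, 12 and 4 genes at an unadjusted p under 0.05 (11.4%, 16.4% and 5.46% of all genes), DESeq2 called 1, 3 and 0 (0.826%, 3.03% and 0.852% of all genes), and limma-voom 3, 8 and 4 (5.50%, 11.2% and 3.44%). Without the 2 libraries that stand apart, 7 of 52 were called among the 5 groups (Vldlr, Cbs, Nupr1, Canx, Asns, Dnajb9 and Cth), where 6.03% of all genes were.

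**Figure D2:**
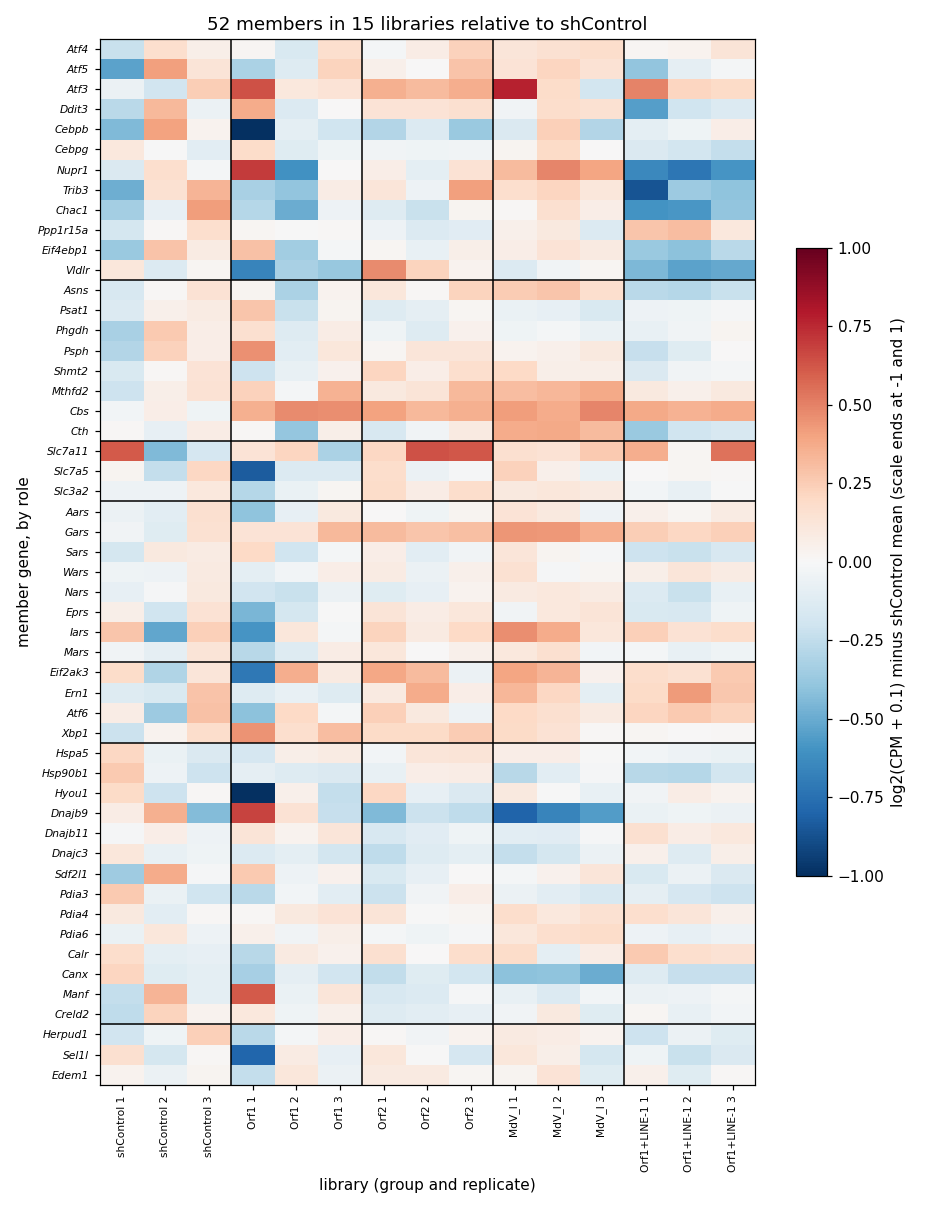
Each row is a gene, ordered by role, and each column a library; colour is log2(CPM + 0.1) minus the shControl mean, with the scale ending at -1 and 1. Cbs is above the shControl mean in all 12 hairpin libraries, Vldlr is low in the 6 libraries with the Orf1 hairpin, and shLINE_Orf1 replicate 1 stands out from the other shLINE_Orf1 libraries in many rows.

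Among the 12 regulators, Vldlr, a receptor for lipoproteins and reelin whose gene is an ATF4 target, separated the groups with the Orf1 hairpin from the others. Its level was 73.6, 61.9 and 68.7 CPM in shControl, 42.8, 54.1 and 52.2 in shLINE_Orf1, and 49.7, 46.8 and 47.6 in shLINE_Orf1+LINE-1. In shLINE_Orf2 it was 94.1, 79.2 and 69.5 CPM, and in shLINE_MdV_I 61.6, 66.3 and 68.8. All 6 libraries with the Orf1 hairpin were thus below the other 9. Vldlr (chromosome 19, 27216484 to 27254231, plus strand, GRCm38) was lower in shLINE_Orf1+LINE-1 than in shLINE_Orf2 by a log2 fold change of -0.75 ± 0.12 (SE; edgeR adjusted p = 0.0192). Against shControl the difference was -0.50 ± 0.12 in shLINE_Orf1+LINE-1 (edgeR adjusted p = 0.120) and -0.45 ± 0.12 in shLINE_Orf1 (edgeR adjusted p = 0.179), and neither passed. Without the 2 libraries that stand apart, the lowest Vldlr control among them, the first of these passed at -0.56 ± 0.099 (edgeR adjusted p = 0.00702). Its counts were spread over 3 main transcripts, with 35.6% on a transcript annotated for nonsense-mediated decay (Vldlr-201), 35.4% on Vldlr-207 and 21.4% on Vldlr-202. With its most abundant transcript alone, the difference from shLINE_Orf2 was -0.32 (edgeR adjusted p = 0.946). The call against shLINE_Orf2 was also lost, at edgeR adjusted p up to 0.113, when shLINE_Orf2 replicate 1 or 2 or any shLINE_Orf1+LINE-1 library was left out, with fold changes from -0.85 to -0.63 over the 15 libraries left out in turn.

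Nupr1, a small stress-induced chromatin protein, was lowest in shLINE_Orf1+LINE-1, at 4.17, 3.95 and 4.33 CPM, and stood at 8.19, 9.24 and 8.66 in shLINE_MdV_I. It was 5.93, 7.39 and 6.47 CPM in shControl, 6.87, 6.13 and 7.29 in shLINE_Orf2, and 10.7, 4.29 and 6.58 in shLINE_Orf1, where replicate 1 was the highest of all 15 libraries. The shLINE_Orf1+LINE-1 and shLINE_MdV_I libraries did not overlap, and the log2 difference of -1.07 ± 0.23 just missed the threshold (edgeR adjusted p = 0.0505). Without the 2 libraries that stand apart it passed (-1.06 ± 0.15, edgeR adjusted p = 0.000603).

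Chac1, Trib3 and Ddit3 also had their lowest mean in shLINE_Orf1+LINE-1, without passing in edgeR's fit of all 5 groups. Chac1, which degrades glutathione, was 8.78, 8.88 and 10.1 CPM in shLINE_Orf1+LINE-1 and 13.5, 14.9 and 13.999 in shLINE_MdV_I, a log2 difference of -0.61 ± 0.17 (edgeR adjusted p = 0.150). This passed without the 2 libraries that stand apart (-0.61 ± 0.16, edgeR adjusted p = 0.0496). Trib3, a pseudokinase that restrains ATF4 targets, was 4.83, 6.89 and 6.70 CPM against 9.99, 10.3 and 9.60, a difference of -0.70 ± 0.21 (edgeR adjusted p = 0.197). In shControl both were spread widely, Chac1 from 10.5 to 17.9 CPM and Trib3 from 6.29 to 11.2. Ddit3, the transcription factor CHOP, averaged 9.90 ± 1.49 CPM (SD, n = 3) in shLINE_Orf1+LINE-1 and 12.995 ± 1.02 (SD, n = 3) in shLINE_MdV_I. In a fit of only the groups compared, Ddit3 was lower in shLINE_Orf1+LINE-1 than in shLINE_Orf2 (-0.43 ± 0.12, edgeR adjusted p = 0.0404). It overlaps Mars on the opposite strand, and whether counting used strand is not stated, so its counts are uncertain.

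Atf4 itself, which is controlled largely at translation, stayed between 137 and 187 CPM in all 15 libraries. Its group means ran from 160 ± 21.6 CPM (SD, n = 3) in shControl to 177 ± 3.34 in shLINE_MdV_I. The log2 difference between those groups was 0.14, with a 95% interval of -0.10 to 0.39. Atf3, another stress-induced transcription factor, was low, at 1.19 to 2.40 CPM over all libraries. Ppp1r15a, the regulatory subunit that brings a phosphatase to eIF2, was 16.2 to 18.7 CPM in shLINE_Orf1+LINE-1 and 13.3 to 17.0 elsewhere. In a fit of only the groups compared, Ppp1r15a was higher in shLINE_Orf1+LINE-1 than in shLINE_Orf2 (0.34 ± 0.090, edgeR adjusted p = 0.0388). Of the remaining regulators, Atf5, Cebpb, Cebpg and Eif4ebp1, none passed in any of the 10 pairs in edgeR's fit of all 5 groups. Eif4ebp1 was lower in shLINE_Orf1+LINE-1 than in shLINE_MdV_I without the 2 libraries that stand apart (-0.44 ± 0.10, edgeR adjusted p = 0.0211). Atf5 and Cebpb share exon sequence with neighbouring genes and are uncertain for the same reason as Ddit3.

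Among the 8 genes of amino acid and one-carbon metabolism, Cbs was higher with every LINE-1 hairpin than with the control hairpin. Cbs encodes cystathionine beta-synthase, which joins homocysteine and serine in the route to cysteine. Its level was 58.0, 61.8 and 57.3 CPM in shControl, 75.7, 82.0 and 81.5 in shLINE_Orf1, and 78.2, 73.8 and 75.5 in shLINE_Orf2. It was 79.0, 76.2 and 82.9 CPM in shLINE_MdV_I and 76.8, 75.1 and 76.5 in shLINE_Orf1+LINE-1. No control library reached the lowest of the other 12, although these 4 comparisons rest on the same 3 control libraries. Cbs (chromosome 17, 31608894 to 31637238, minus strand, GRCm38) rose by a log2 fold change of 0.43 ± 0.079 (SE) in shLINE_Orf1 (edgeR adjusted p = 0.0354) and by 0.43 ± 0.079 in shLINE_MdV_I (edgeR adjusted p = 0.0211). The difference was 0.37 ± 0.079 in shLINE_Orf1+LINE-1 (edgeR adjusted p = 0.0885) and 0.36 ± 0.079 in shLINE_Orf2 (edgeR adjusted p = 0.1004), which did not pass. Without the 2 libraries that stand apart, all 4 passed, with fold changes of 0.40 to 0.50. The libraries left out there were the highest control and the lowest shLINE_Orf1 library for Cbs. Adding LINE-1 to the Orf1 hairpin moved Cbs by -0.07, with a 95% interval of -0.24 to 0.11.

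The Cbs calls lay close to the threshold and depended on the setting. Over all alternative settings and libraries left out, the shLINE_Orf1 call was kept in 8 of 26. The shLINE_MdV_I call was kept in 17 of 26 and the call among the 5 groups in 8 of 25. In shLINE_Orf1 the call was lost when any library other than shControl replicate 2 or shLINE_Orf1 replicate 1 was left out (edgeR adjusted p up to 0.204), while the fold change stayed between 0.42 and 0.47. In shLINE_MdV_I it was lost without shControl replicate 1 or 3 or any shLINE_MdV_I library (edgeR adjusted p up to 0.118), with fold changes of 0.40 to 0.47.

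Cth, which makes cysteine from the product of Cbs, was highest in shLINE_MdV_I, at 15.5, 15.6 and 14.9 CPM. It was 12.05, 11.3 and 12.6 CPM in shControl, 12.04, 9.12 and 12.5 in shLINE_Orf1, 10.7, 11.7 and 12.8 in shLINE_Orf2, and 9.25, 10.4 and 10.7 in shLINE_Orf1+LINE-1. All shLINE_MdV_I libraries were above the other 12. Cth (chromosome 3, 157894248 to 157925077, minus strand, GRCm38) was lower in shLINE_Orf1+LINE-1 than in shLINE_MdV_I by -0.60 ± 0.13 on the log2 scale (edgeR adjusted p = 0.0456). That call was lost when any library other than shControl replicate 2 or one of the shLINE_Orf1 libraries was left out (edgeR adjusted p up to 0.269; fold changes -0.64 to -0.54). A number that ends the sample descriptions was 12 for shLINE_MdV_I replicates 2 and 3 and shLINE_Orf1 replicate 1 and 1 for the rest; the labels do not say what it is. The shLINE_MdV_I library with the number 1 held 15.5 CPM of Cth.

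Asns, asparagine synthetase, likewise had its highest mean in shLINE_MdV_I and its lowest in shLINE_Orf1+LINE-1. It was 184, 182 and 190 CPM in shLINE_Orf1+LINE-1 and 265, 269 and 249 in shLINE_MdV_I, with 198, 224 and 246 in shControl, 227, 178 and 227 in shLINE_Orf1 and 241, 224 and 259 in shLINE_Orf2. The difference between shLINE_Orf1+LINE-1 and shLINE_MdV_I, whose libraries did not overlap, was -0.49 ± 0.11 on the log2 scale (edgeR adjusted p = 0.0537). Without the 2 libraries that stand apart it passed, with edgeR adjusted p = 0.00619.

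The other serine and one-carbon genes had no call in edgeR's fit of all 5 groups. Phgdh was between 424 and 638 CPM in shControl alone and 487 to 595 in all other libraries, and its log2 difference from shControl was between -0.06 and 0.02 in the 4 other groups. Psat1, Psph, Shmt2 and Mthfd2, the remaining enzymes of serine and one-carbon metabolism, passed in none of the 10 pairs of that fit. In fits of only the groups compared, Mthfd2 was lower in shLINE_Orf1+LINE-1 than in shLINE_MdV_I (-0.26 ± 0.047, edgeR adjusted p = 0.00589) and Shmt2 lower than in shLINE_Orf2 (-0.22 ± 0.059, edgeR adjusted p = 0.0441).

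**Figure D3:**
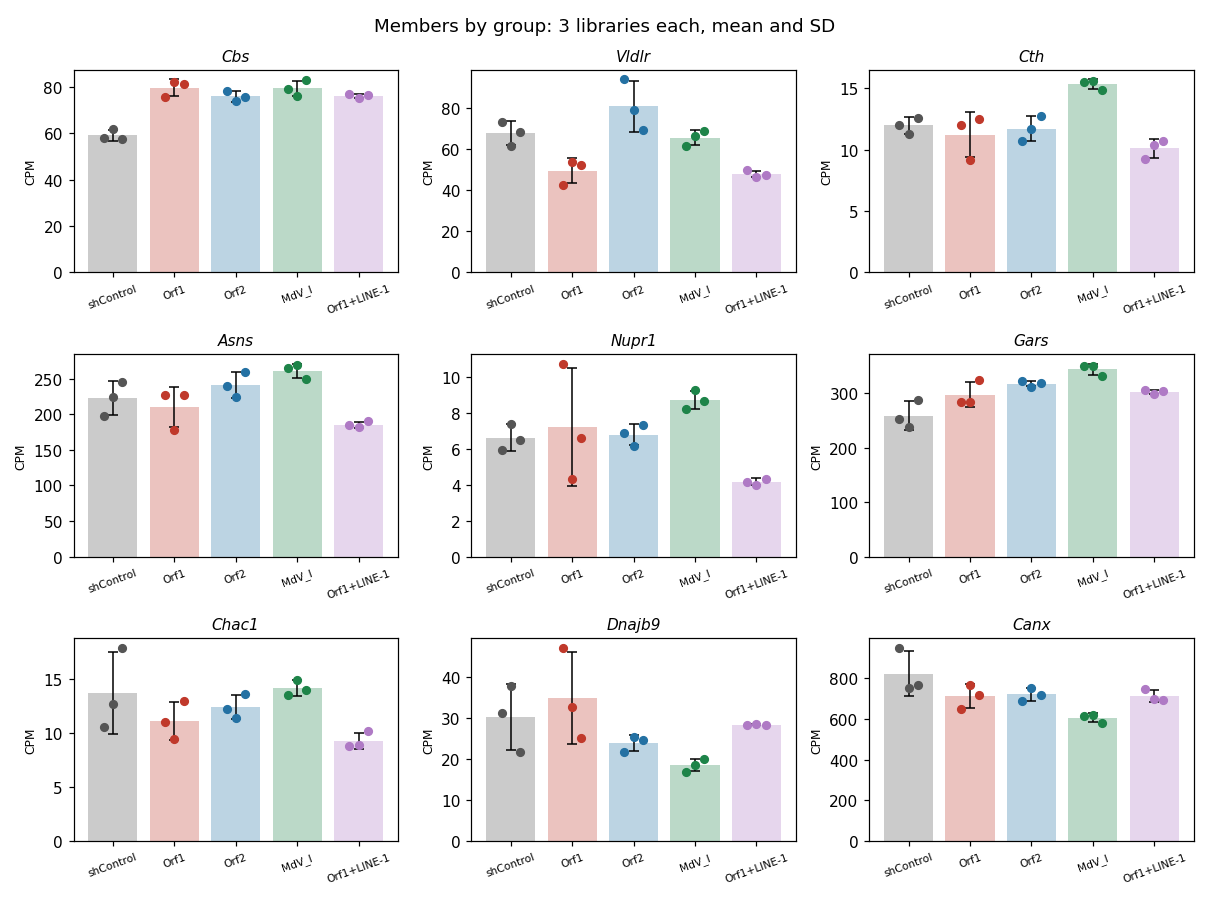
CPM of 9 genes by group; dots are the 3 libraries of a group in replicate order, bars the mean and whiskers the SD, with axes starting at 0. Cbs is 57.3 to 61.8 CPM in shControl and 73.8 to 82.9 in the 12 other libraries; Cth, Asns, Nupr1, Gars and Chac1 have their highest mean in shLINE_MdV_I, where Dnajb9 and Canx are lowest.

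None of the 3 transporters or 8 tRNA synthetases passed in any of the 10 pairs in edgeR's test. There 0 to 2 transporters and 0 to 4 synthetases a pair had an unadjusted p under 0.05, where 5.46% to 16.4% of all genes did. The 4 synthetases were all higher in shLINE_MdV_I than in shLINE_Orf1 (16.4% of all genes). In that pair, and in shLINE_Orf2 against shLINE_Orf1 (11.4% of all genes), 2 transporters were higher. Slc7a11, the cystine and glutamate exchanger, spread from 5.92 to 12.4 CPM in shControl alone and from 6.47 to 12.6 in the other libraries. Its partner Slc3a2 was 276 to 383 CPM and the leucine transporter Slc7a5 184 to 385, both lowest in shLINE_Orf1 replicate 1. Gars, the glycyl-tRNA synthetase, was 253, 238 and 288 CPM in shControl, 285, 284 and 324 in shLINE_Orf1 and 323, 313 and 319 in shLINE_Orf2. It was 351, 350 and 332 CPM in shLINE_MdV_I and 306, 299 and 305 in shLINE_Orf1+LINE-1, so that 10 of these 12 libraries lay above the highest control and the shLINE_MdV_I libraries above all others. Its log2 difference between shLINE_MdV_I and shControl, 0.41 ± 0.090, missed the threshold (edgeR adjusted p = 0.0567) and passed at 0.35 ± 0.076 without the 2 libraries that stand apart (edgeR adjusted p = 0.0206). The synthetases Aars, Sars, Wars, Nars, Eprs, Iars and Mars charge alanine, serine, tryptophan, asparagine, glutamate with proline, isoleucine and methionine; Iars varied most among them, from 92.3 CPM in shLINE_Orf1 replicate 1 to 192 in shLINE_MdV_I replicate 1.

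None of the 21 UPR genes passed in any of the 10 pairs in edgeR's test, and 0 to 4 of them a pair had an unadjusted p under 0.05, where 5.46% to 16.4% of all genes did. The 4 were 3 higher and 1 lower in shLINE_Orf1+LINE-1 than in shLINE_MdV_I (8.51% of all genes). The sensors Eif2ak3, Ern1 and Atf6 and the factor Xbp1 had log2 differences from shControl of -0.13 to 0.30 in the 4 hairpin groups. Xbp1 was 59.0, 48.4 and 53.3 CPM in shLINE_Orf1, against 37.1, 44.2 and 48.8 in shControl, a log2 difference of 0.30 ± 0.11 (edgeR adjusted p = 0.377). Splicing of Xbp1 mRNA by IRE1, the direct readout of that sensor, was not analysed here.

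Of the 14 chaperones and folding factors, Dnajb9 and Canx were lowest in shLINE_MdV_I. Dnajb9, a BiP co-chaperone also known as ERdj4, was 16.9, 18.5 and 19.9 CPM there and 31.04, 37.7 and 21.7 in shControl. It was 47.0, 32.5 and 25.0 CPM in shLINE_Orf1, 21.7, 25.3 and 24.6 in shLINE_Orf2, and 28.1, 28.5 and 28.3 in shLINE_Orf1+LINE-1. All shLINE_MdV_I libraries were below the other 12, and the log2 difference from shLINE_Orf1 was -0.92 ± 0.20 (edgeR adjusted p = 0.0546). Without the 2 libraries that stand apart, the high shLINE_Orf1 replicate 1 among them, it was -0.63 ± 0.14 and passed (edgeR adjusted p = 0.0322).

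Canx, the calnexin that holds glycoproteins during folding, was 616, 621 and 581 CPM in shLINE_MdV_I and 951, 754 and 765 in shControl. It was 650, 769 and 717 CPM in shLINE_Orf1, 690, 754 and 721 in shLINE_Orf2, and 747, 699 and 696 in shLINE_Orf1+LINE-1, all above shLINE_MdV_I. The log2 difference of shLINE_MdV_I from shControl was -0.44 ± 0.10 (edgeR adjusted p = 0.0700), and -0.50 ± 0.085 without the 2 libraries that stand apart (edgeR adjusted p = 0.00391). The control library left out there was the lowest of the 3 for Canx, and the highest, shControl replicate 1, was kept. Hspa5, a common readout of the UPR, was 667 to 867 CPM over all libraries, and its difference from shControl lay between -0.06 and 0.07 on the log2 scale in the 4 groups. The 95% interval of its difference from shControl ran from -0.29 to 0.17 in shLINE_Orf1+LINE-1. Hsp90b1, Hyou1, Dnajb11, Dnajc3, Sdf2l1, Pdia3, Pdia4, Pdia6, Calr, Manf and Creld2 did not pass in edgeR's fit of all 5 groups. Pdia6, a protein disulfide isomerase, was lower in shLINE_Orf1+LINE-1 than in shLINE_MdV_I without the 2 libraries that stand apart (-0.21 ± 0.057, edgeR adjusted p = 0.0488). In fits of only the groups compared, Dnajb11 and Hsp90b1 passed between shLINE_Orf1+LINE-1 and shLINE_Orf2 (0.22 ± 0.056, edgeR adjusted p = 0.0333, and -0.27 ± 0.061, edgeR adjusted p = 0.0202). Manf shares exon sequence with a neighbouring gene and is uncertain. Of the 3 genes for degradation of misfolded proteins, Herpud1 was 20.2 to 28.7 CPM, Edem1 35.7 to 46.5 and Sel1l 60.1 to 117, all 3 lowest in shLINE_Orf1 replicate 1.

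As a group, the ISR genes were lower in shLINE_Orf1+LINE-1 than in shLINE_MdV_I, most of them without a call. The median log2 difference of the 31 ISR genes was -0.17, with 25 of 31 negative, against a median of -0.0016 over all 15141 genes, of which 49.7% were positive. The 12 regulators had a median of -0.36. The 21 UPR genes had a median of -0.03, with 12 of 21 negative. Of the 52 genes, 22 were lower without overlap between these libraries, where 13.5% of all genes were, and 6 were higher, where 13.7% of all genes were. At an unadjusted p under 0.05 stood 16 of 52, where 8.51% of all genes did. Against shLINE_Orf1, the ISR median of shLINE_MdV_I was 0.18, with 26 of 31 positive where 49.5% of all genes were, and 12 of the 52 genes had an unadjusted p under 0.05 where 16.4% of all genes did. The summed astrocyte markers were 1051 to 1227 CPM in shLINE_MdV_I and 1381 to 1679 in shLINE_Orf1, and their part in the result was not tested.

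More genes were called between shLINE_Orf1+LINE-1 and shLINE_MdV_I in a fit of these 2 groups alone, which changes both the spread and the genes tested. There, 16 of 52 passed, where 8.21% of 14498 genes did. The 13 lower in shLINE_Orf1+LINE-1 were Nupr1, Trib3, Chac1, Cth, Asns, Vldlr, Eif4ebp1, Cebpg, Mthfd2, Sars, Nars, Pdia6 and Gars, and the 3 higher were Dnajb9, Canx and Dnajb11. Nupr1 (-1.07 ± 0.12, edgeR adjusted p = 0.000247) and Asns (-0.50 ± 0.046, edgeR adjusted p = 8.9e-05) were examples. With all 5 groups sharing 1 estimate of the spread and without the 2 libraries that stand apart, 8 of 52 passed, where 3.73% of all genes did. Astrocyte markers were lowest in shLINE_MdV_I against every other group: the summed level of 9 such markers, all tested, was 1051 to 1227 CPM there, 1369 to 1459 in shLINE_Orf1+LINE-1, 1360 to 1652 in shControl, 1381 to 1679 in shLINE_Orf1 and 1251 to 1375 in shLINE_Orf2. The astrocyte sum rests mainly on Apoe, Sparcl1, Aldh1l1 and Aldoc, which averaged 350, 335, 256 and 249 CPM over all libraries. The defining marker Gfap averaged 4.38 CPM, so this sum is not a measure of astrocyte content. The neuronal sum, of which 10 of 11 markers were tested, was 411 to 445 CPM in shLINE_Orf1+LINE-1 against 456 to 485 in shLINE_MdV_I. Map2 alone averaged 391 CPM over all libraries, so this sum rests mainly on Map2 and is not a measure of neuronal content. The part of the astrocyte and neuronal sums in the result was not tested. In such bulk libraries fewer cells of a type and less RNA per cell cannot be told apart.

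shLINE_Orf1+LINE-1 differed from shLINE_Orf2 in a similar way. The ISR median was -0.15, with 23 of 31 negative, and the UPR median -0.01. Of the 52 genes, 23 were lower and 5 higher without overlap between the libraries, where 26.5% of all genes did not overlap in either direction. In a fit of these 2 groups alone, 12 of 52 passed, 10 of them lower, where 7.09% of 14528 genes did. The 2 higher were Ppp1r15a and Dnajb11. Both comparisons share the shLINE_Orf1+LINE-1 libraries.

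Against shControl the groups were closer together. The ISR median was 0.08 in shLINE_MdV_I, with 27 of 31 positive where 47.6% of all genes were, 0.07 in shLINE_Orf2 with 20 of 31, -0.04 in shLINE_Orf1 with 12 of 31 and -0.06 in shLINE_Orf1+LINE-1 with 10 of 31. The astrocyte sum moved with the shLINE_MdV_I shift, at 1051 to 1227 CPM against 1360 to 1652 in shControl, and its part in the result was not tested. UPR medians were -0.04 to 0.02. The control libraries themselves spread as widely: the mean of the 31 ISR genes, on a log2 CPM scale relative to the shControl mean, was -0.12, 0.01 and 0.10 in the 3 controls. It was 0.16, 0.17 and 0.09 in shLINE_MdV_I and -0.12, -0.10 and -0.04 in shLINE_Orf1+LINE-1, so these groups did not overlap each other, while each overlapped the range of the controls.

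**Figure D4:**
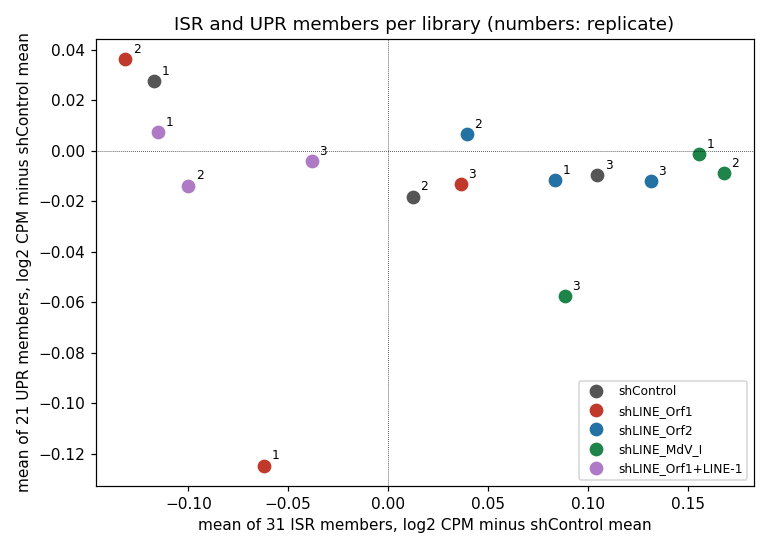
Each dot is a library, numbered by replicate; the x axis is the mean log2 CPM of the 31 ISR genes and the y axis that of the 21 UPR genes, both minus the shControl mean. Controls run from -0.12 to 0.10 on the x axis, shLINE_MdV_I from 0.09 to 0.17 and shLINE_Orf1+LINE-1 from -0.12 to -0.04; shLINE_Orf1 replicate 1 is lowest on the y axis at -0.12.

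The comparison of shLINE_Orf1+LINE-1 with shLINE_Orf1 asks whether adding a full-length LINE-1 changes what the Orf1 hairpin left. None of the 52 genes passed (0% of all genes), 5 had an unadjusted p under 0.05 (11.1% of all genes), DESeq2 called 0 (0.132% of all genes) and limma-voom 2 (2.64%). The ISR median was -0.05 and the UPR median 0.0046. Nupr1 had the lowest fold change, -0.79 ± 0.24 (edgeR adjusted p = 0.422), and its libraries overlapped. Vldlr, low in both groups, differed by -0.05, with a 95% interval of -0.32 to 0.22.

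**Figure D5:**
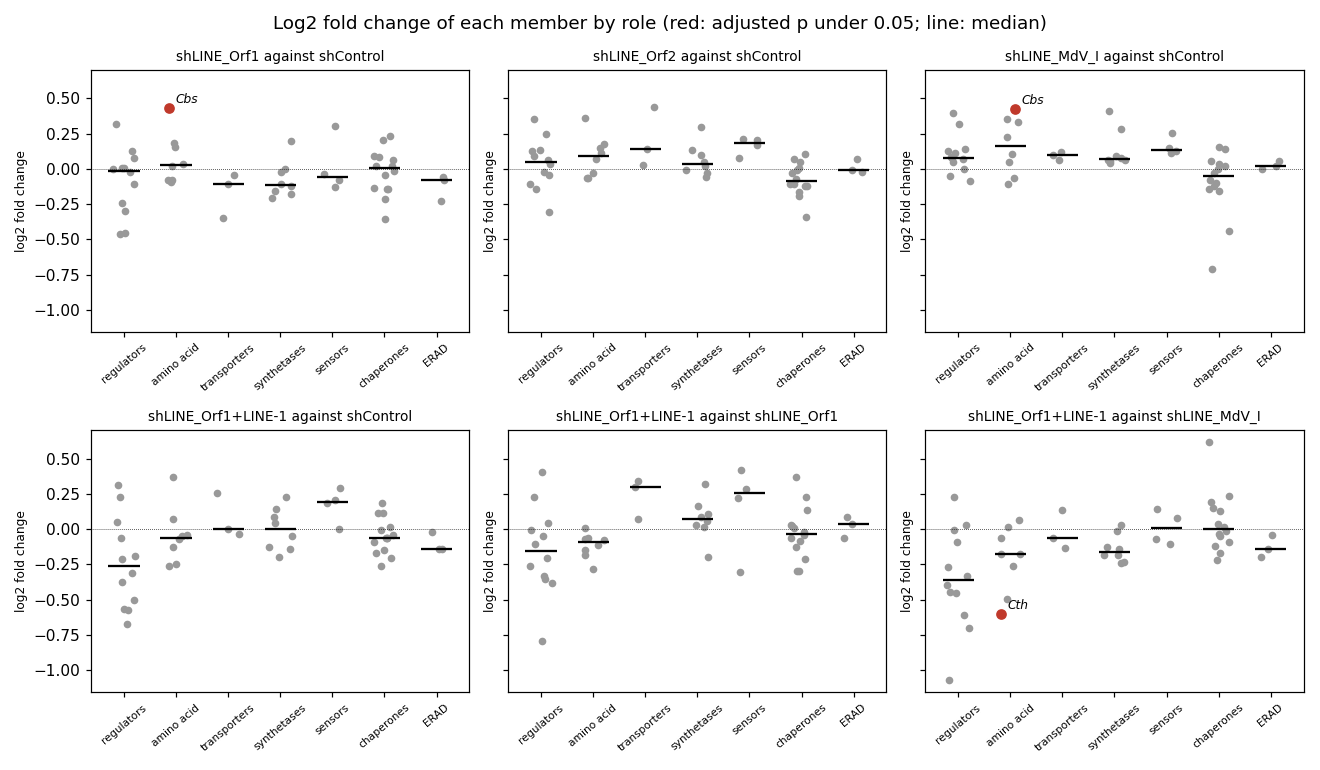
Log2 fold change of each of the 52 genes in 6 comparisons, grouped by role on the x axis; red dots passed at an adjusted p under 0.05 and black lines are medians. Cbs passed in 2 panels and Cth in 1; the regulators have a median of -0.36 in shLINE_Orf1+LINE-1 against shLINE_MdV_I.

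A further list of 50 ISR genes and one of 55 UPR genes, outside the 52, were examined in the same fit. Of 49 ISR genes tested, 2 differed among the 5 groups in edgeR's test, Ddit4 and Pycr1, and 0 of 54 UPR genes did, against 0.944% of all genes. At an unadjusted p under 0.05 stood 12 and 6, against 11.99% of all genes. Pycr1, which makes proline, was higher in shLINE_MdV_I (24.7 ± 1.71 CPM, SD, n = 3) than in shLINE_Orf1 (15.2 ± 0.569; edgeR adjusted p = 0.00953) and than in shLINE_Orf1+LINE-1 (15.4 ± 0.0614; edgeR adjusted p = 0.00880). Ddit4, an inhibitor of mTORC1 signalling, was 21.7 ± 2.99 CPM in shLINE_Orf1+LINE-1 and 47.3 ± 4.14 in shLINE_MdV_I, a log2 difference of -1.12 ± 0.19 (edgeR adjusted p = 0.0119). It was also lower than in shLINE_Orf2 by -1.19 ± 0.19 (edgeR adjusted p = 0.0192). The cationic amino acid transporter Slc7a3 was lower in shLINE_Orf1+LINE-1 than in shLINE_MdV_I (-0.86 ± 0.18, edgeR adjusted p = 0.0355), and the secreted hormone gene Stc2 lower than in shLINE_Orf2 (-0.83 ± 0.14, edgeR adjusted p = 0.0245). No gene of either list passed against shControl; there 6 to 9 of the 49 ISR genes and 2 or 3 of the 54 UPR genes had an unadjusted p under 0.05, against 7.01% to 10.5% of all genes.

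The authors' deposited table of a mixed model, named for a young effect, lists 17921 genes, all 52 among them, with an adjusted p of 1 for every gene. The authors' deposited table gives the tryptophanyl-tRNA synthetase Wars, 1 of the 52, a p under 0.05 (estimate 1.56, p = 0.00964, mixed model), where 2.66% of its genes had one; for Cbs it gives p = 0.331. Wars stayed between 132 and 158 CPM in all 15 libraries here, and its log2 differences from shControl lay between -0.02 and 0.09.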

How the data were processed

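The deposited table holds expected counts per transcript, made by the authors from 15 RNA libraries; the submitters' processing notes name cutadapt, RSEM and the mm10 genome, without versions or settings. No source used here gives the annotation or says whether counting used strand. Of 111462 transcripts, 110115 were matched by identifier (2497 with another version) to GENCODE M21 genes and summed to 34910 genes; the 1347 unmatched transcripts held 0.595% to 0.650% of counts and were left out, as was 1 row with no name. Sums were rounded to whole numbers. Genes were kept by edgeR's filter (minimum count 10), scaled by TMM, and tested with edgeR 4.0.16 in R 4.3.3, by the quasi-likelihood test with all 5 groups in 1 fit (10 residual degrees of freedom, common biological coefficient of variation 0.158). The log2 CPM behind the library means and principal components used a prior count of 2. P-values were adjusted by Benjamini-Hochberg over all 15141 genes, with a threshold of 0.05. CPM are TMM-scaled; TPM were computed from deposited transcript counts and annotated lengths. The script was tested on simulated data.

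The 52 genes and all lists were chosen with earlier results of these data known. Named with values are genes called in any pair or among the 5 groups by the edgeR fit of all 5 groups, the 8 with the smallest p among the 5 groups, and 12 sentinels: Atf4, Ddit3, Trib3, Chac1, Asns, Phgdh, Slc7a11, Hspa5, Xbp1, Herpud1, Dnajb9 and Atf3. Other genes are given by role. Alternatives were DESeq2 1.42.0, limma-voom with quality weights (limma 3.58.1), other scalings and filters, fits of only the groups compared, the most abundant transcript, a block on replicate number, and leaving out libraries. The authors' deposited mixed-model table gives an estimate, a t score, a p-value and an adjusted p-value per gene, per the file headers; its scale and samples are not stated. Promoter sequences are from RefSeq.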

Additional observations from a re-analysis of the deposited data

How the results depend on the processing

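Of 995 values recomputed under an alternative, 804 stayed the same, 93 moved, and 76 lost and 22 gained a call. The causes were not tested. Genes had to keep their call or lack of one, medians to move by less than the spread between replicates, and counts to stay within a set factor. The 804 include genes that stayed without a call, such as Atf4 and Hspa5 in 25 of 25 alternatives each. The call of Cbs among the 5 groups was kept in 8 of 25, and that of Cth in 9 of 26. No called value changed sign, but medians near 0 did: all those of the UPR genes except in shLINE_MdV_I, and those of the ISR genes in shLINE_Orf1 and shLINE_Orf2 against shControl and in shLINE_Orf1+LINE-1 against shLINE_Orf1, each under at least 1 alternative. Of the 52 genes, the main test called 2 among the 5 groups, against 0 with library size alone, 1 with no filter, 9 with DESeq2, 12 with limma-voom, 0 with the most abundant transcript alone, 7 without both libraries that stand apart and 0 to 3 leaving out 1 library (0 without shLINE_Orf2 replicate 2, shLINE_MdV_I replicate 1 or 2, or shLINE_Orf1+LINE-1 replicate 2). For shLINE_Orf1 against shControl, 1 call became 0 with library size alone, no filter, only the groups compared or the most abundant transcript, 2 with DESeq2 and with limma-voom, and 0 to 1 leaving out 1 library. For shLINE_MdV_I against shControl, 1 call became 0 with no filter, only the groups compared or the most abundant transcript, 2 with at least 50 counts or the last description number as covariate, 3 with DESeq2, limma-voom or without both libraries, and 0 to 4 leaving out 1 library (4 without shLINE_Orf1 replicate 1). For shLINE_Orf1+LINE-1 against shControl, 0 calls became 2 with DESeq2, 7 with limma-voom, 2 without both libraries and 0 to 3 leaving out 1 (3 without shLINE_Orf1 replicate 1). For shLINE_Orf2 against shControl, 0 became 2, 1 and 1 under DESeq2, limma-voom and without both libraries, and 0 to 1 leaving out 1 library (1 without shLINE_Orf1 replicate 1). For shLINE_Orf1+LINE-1 against shLINE_Orf1, 0 became 2 with limma-voom and stayed 0 leaving out each library. Over the other 5 pairs, 2 calls became 1 with RLE scaling, 4 with no filter or at least 50 counts, 10 with DESeq2, 42 with limma-voom, 28 with only the groups compared, 7 with the last description number, 0 with the most abundant transcript, 13 without both libraries, and 0 to 6 leaving out 1 (6 without shLINE_Orf1 replicate 1). Over all genes these settings called 23 to 1548 among the 5 groups. Against shControl they called 1 to 638 in shLINE_Orf1, 22 to 395 in shLINE_MdV_I, 2 to 542 in shLINE_Orf1+LINE-1 and 3 to 383 in shLINE_Orf2. For shLINE_Orf1+LINE-1 against shLINE_Orf1 the range was 0 to 399, and summed over the other 5 pairs 62 to 6263. In each of those 5 pairs DESeq2 called 0.826% to 3.03% of all genes, limma-voom 3.44% to 11.2%, and fits of only the groups compared 0% to 8.21%. The ISR median of shLINE_Orf1 against shControl was -0.13 with library size alone, and the UPR median 0.019 with limma-voom. The UPR median of shLINE_MdV_I against shControl was 0.12 with the last description number, and that of shLINE_Orf1+LINE-1 against shLINE_Orf1 0.077 with library size alone. Leaving out 1 library, ISR medians against shControl ran from -0.09 to 0.02 in shLINE_Orf1, 0.0018 to 0.12 in shLINE_Orf2, 0.051 to 0.16 in shLINE_MdV_I and -0.13 to -0.01 in shLINE_Orf1+LINE-1. UPR medians ran from -0.10 to 0.027, -0.015 to 0.078, 0.00086 to 0.05 and -0.04 to 0.01. Against shLINE_Orf1, those of shLINE_Orf1+LINE-1 ran from -0.05 to -0.01 for ISR and -0.05 to 0.03 for UPR genes.

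Same-numbered libraries did not deviate together (correlations from -0.27 to 0.18, 3 of 30 pairs over 0.1, 1 of 15 libraries closest to its own number), so the numbers were not taken as pairs. With the replicate block, 0 of the 52 genes were called among the 5 groups, 0 in shLINE_Orf1 and 0 in shLINE_MdV_I against shControl, and 0 over the other 5 pairs.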
